A study of Mus musculus with 6 samples.

Results

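The NRF2 target genes of glutathione and thioredoxin metabolism were followed across esophagus samples from mice treated with an oral carcinogen. The set holds 10 genes taken by symbol, namely Gclc, Gclm, Gsr, Slc7a11, Gpx2, Txnrd1, Srxn1, Nqo1 and Hmox1 with Nfe2l2, which encodes NRF2 itself, of 54232 gene IDs listed for each library. One group comprised 3 libraries from mice injected with DTA-1, which stimulates GITR, a costimulatory receptor on T cells, and the other 3 came from mice injected with an isotype control antibody. Both groups had drunk 4-nitroquinoline 1-oxide (4-NQO) at 100 µg/ml for 16 weeks from 8 weeks of age and plain water for the next 12 weeks. Either antibody was given intraperitoneally at 10 µg per injection, starting 2.5 weeks before the esophagi were taken. Strain, sex and genotype are not given in the labels, and no group without carcinogen was analysed here, so the levels cannot be set against healthy esophagus. Invading cells were enriched in the tissue before it was cut up and frozen, and the sequenced RNA was polyA selected from the bulk tissue, so each library is a mixture of epithelium, muscle, stroma and blood cells. In such bulk samples fewer cells of a type and less RNA per cell cannot be told apart.

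NRF2 is a transcription factor that is held in the cytoplasm by KEAP1 and sent there for degradation. Oxidants and electrophiles, among them metabolites of 4-NQO, block that control, and NRF2 then pairs with small MAF proteins on antioxidant response elements. Its targets make glutathione, recycle glutathione and thioredoxin, and reduce quinones, and the pathway is often mutated towards constant activity in human esophageal squamous carcinoma.

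Counts per library summed to between 23147873 and 29065162, and the 10 genes had at least 462 reads in each library, so counting error is small beside the spread between libraries. Libraries with DTA-1 differed from isotype libraries in tissue makeup as well. Summed levels of 26 squamous marker genes were 39547, 10760.4 and 13292 CPM, the usual unit of counts relative to library size, here scaled by the trimmed mean of M-values (TMM), in DTA-1 libraries 1, 2 and 3, against 45577, 50900.1 and 49199 CPM in isotype libraries 1, 2 and 3. In this sum of 26 genes DTA-1 library 1 was thus close to the isotype libraries, and DTA-1 libraries 2 and 3 were several times lower. The 16 differentiated genes made most of the sum, at 28354, 7424 and 9034 CPM with DTA-1, against 28562, 41521 and 44493 CPM with isotype. The 10 basal genes summed to 11193, 3337 and 4257 CPM with DTA-1, against 17015, 9379 and 4706 CPM with isotype. For the basal genes isotype library 3 thus lay near DTA-1 library 3. Summed levels of 15 striated muscle genes ran from 99834 to 148826 CPM with DTA-1, against 46221 to 94601 CPM with isotype. The defining squamous and muscle markers had reads in each of the 6 libraries. Other marker lists differed too. Summed levels of 6 neutrophil genes were 3312, 929.5 and 1303 CPM with DTA-1, against 3894, 4803 and 3700.0 CPM with isotype, and those of 10 cell cycle genes 281, 105 and 87.5 CPM with DTA-1, against 302, 239 and 184 CPM with isotype, both low in DTA-1 libraries 2 and 3. The mean log2 CPM of the 5 tested neutrophil genes was 4.61, 4.27 and 3.64 with DTA-1, against 6.13, 5.45 and 4.69 with isotype. A few genes thus made most of the neutrophil sums, and which cells they came from was not tested. All 8 T cell genes had negative fold changes (median -0.89), and all 7 B lineage and 5 tested adipocyte genes positive ones (medians 2.48 and 1.39). The T cell genes summed to only 5.73 to 21.8 CPM per library, and Cd79a and Ms4a1 of the B lineage had no read in some library. B lineage sums were 8.83, 32.3 and 71.1 CPM with DTA-1, against 1.84, 25.6 and 1.95 CPM with isotype. Adipocyte sums were 152, 137 and 748 CPM with DTA-1, against 41.5, 239.6 and 113 CPM with isotype. Both of these sums overlapped between the groups. The part of these cell types in the levels of the 10 genes was not tested. Red cell transcripts stood out in DTA-1 library 2 (2907 CPM over 7 genes, against 85.3 to 172 CPM in the other 5 libraries) and glandular stomach transcripts in isotype library 3 (2433 CPM over 9 genes, against 4.75 to 324 CPM in the others).

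On average the glutathione-synthesis genes, Gpx2, Nqo1 and Hmox1 were less abundant with DTA-1, while Txnrd1 and Srxn1 had log2 fold changes of 0.13 and -0.02, and none of the 10 genes passed the test. Fold changes were negative for 9 of 10 genes, as they were for 52.9% of all genes. The median log2 fold change over the 10 genes was -0.69, against -0.03 over all 15763 genes tested, and single values ran from -1.33 for Slc7a11 to 0.13 for Txnrd1. EdgeR called 0 of the 10 genes at an adjusted p of 0.05, where it called 0.0% of all genes. DESeq2 also called 0 of the 10 (1.12% of all genes, and 0.852% as lower), and limma-voom called 0 (0.0% of all genes). At an unadjusted p under 0.05 edgeR counted 2 of the 10 genes as lower, Gclc and Gpx2, where 7.52% of all genes were lower and 5.21% higher. The same 2 genes had every DTA-1 library below every isotype library, a pattern shown by 9.38% of all genes, and 0 of the 10 lay above the isotype range in all 3 DTA-1 libraries, which 8.6% of all genes did. The DTA-1 libraries were uneven. In DTA-1 library 1, 7 of the 10 genes lay within the isotype range and 3 below it, whereas 7 lay below it in each of DTA-1 libraries 2 and 3. The 7 were Gclc, Gclm, Slc7a11, Gpx2, Nqo1, Hmox1 and Nfe2l2 in both libraries, and both lay below all isotype libraries for 25.1% of all genes.

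**Figure D1:**
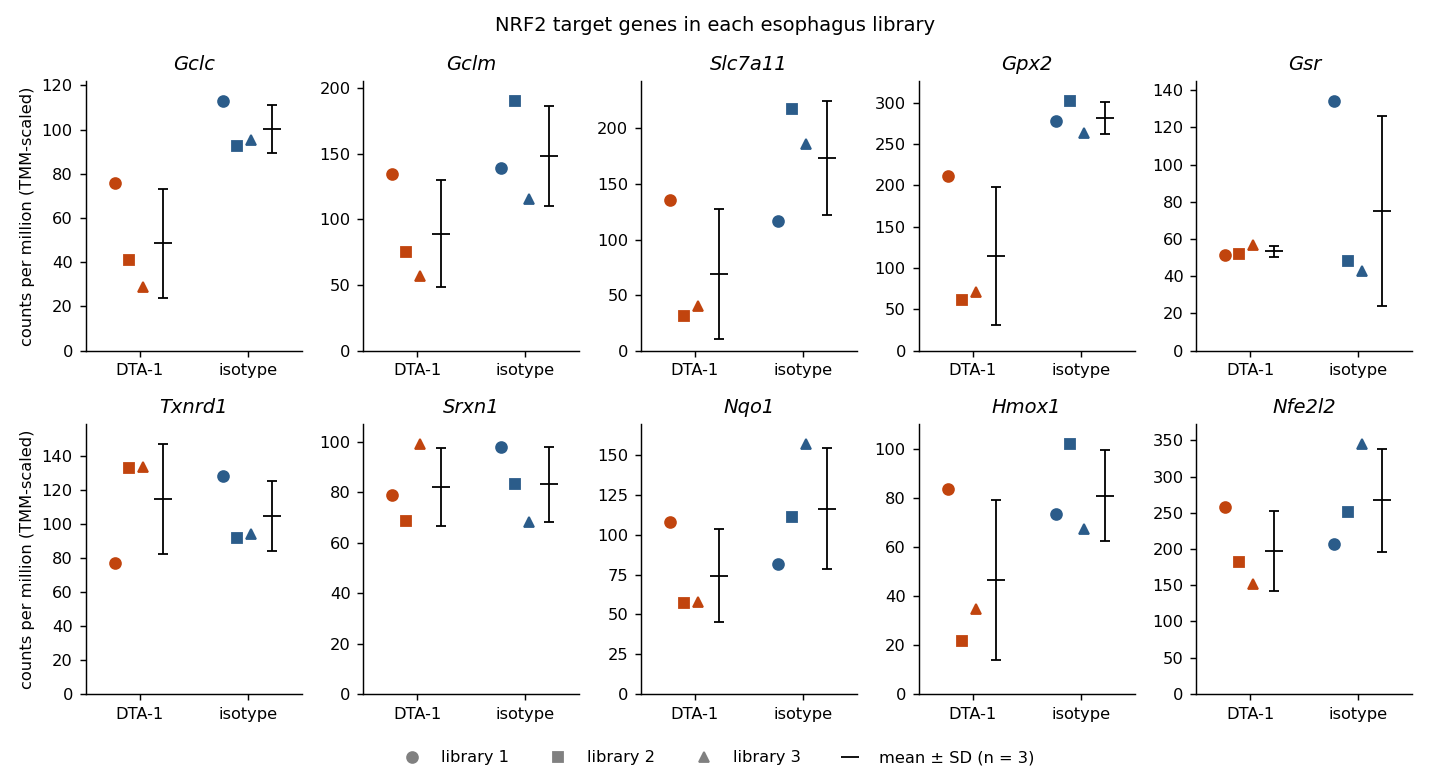
Level of each of the 10 genes in CPM (TMM-scaled, vertical axes from 0) in DTA-1 (left, red) and isotype (right, blue) libraries; symbols mark libraries 1 to 3 and black bars the mean ± SD (n = 3 each). DTA-1 libraries 2 and 3 lay lowest for Gclc, Gclm, Slc7a11, Gpx2, Nqo1, Hmox1 and Nfe2l2, while Txnrd1, Srxn1 and Gsr showed no such order.

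RefSeq promoter windows on GRCm38.p6, the assembly of the mm10 build named for these files, run from 250 bases before to 50 after an annotated start and were at hand for 7 of the 10 genes. Gclc, Gsr and Hmox1 had no entry. The windows were read on both strands for TGACNNNGC, the core of the antioxidant response element that NRF2 binds with its MAF partner. This core is short and leaves letters free, so a match does not show that NRF2 binds there. Of the 7 genes, Gclm, Nfe2l2, Srxn1 and Txnrd1 held a match, and 14% of all genes with a window did (12.4% of all windows). Gpx2, Nqo1 and Slc7a11 had none within their windows. The related sequence TGAGTCAGC, searched after the windows had been read, was found in Srxn1 alone of the 7 and in 0.481% of all genes. That match contains TGACTCA, the AP-1 motif, on the opposite strand, whereas no TGACNNNGC match overlapped TGACTCA. The 4 windows with a match are shown because their genes ranged from Gclm, at a log2 fold change of -0.74, and Nfe2l2, at -0.44, to Srxn1 and Txnrd1, which were near 0. They are written 5′ to 3′ along the gene's own strand, with the matched bases in capitals.
Gclm, chr3:122245307-122245606, plus strand: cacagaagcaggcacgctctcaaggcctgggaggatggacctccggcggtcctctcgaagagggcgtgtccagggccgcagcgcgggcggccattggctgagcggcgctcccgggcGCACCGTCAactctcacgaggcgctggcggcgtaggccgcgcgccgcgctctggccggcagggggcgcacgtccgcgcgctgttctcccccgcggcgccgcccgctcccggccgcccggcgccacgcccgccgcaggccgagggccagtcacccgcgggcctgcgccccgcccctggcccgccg
Nfe2l2, chr2:75704614-75704913, minus strand: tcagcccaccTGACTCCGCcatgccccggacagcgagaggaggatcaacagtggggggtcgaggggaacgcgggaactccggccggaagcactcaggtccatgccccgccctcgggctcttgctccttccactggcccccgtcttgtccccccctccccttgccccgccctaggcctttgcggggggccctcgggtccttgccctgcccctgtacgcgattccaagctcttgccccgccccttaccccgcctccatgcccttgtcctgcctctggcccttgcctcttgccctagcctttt
Srxn1, chr2:152105274-152105573, plus strand: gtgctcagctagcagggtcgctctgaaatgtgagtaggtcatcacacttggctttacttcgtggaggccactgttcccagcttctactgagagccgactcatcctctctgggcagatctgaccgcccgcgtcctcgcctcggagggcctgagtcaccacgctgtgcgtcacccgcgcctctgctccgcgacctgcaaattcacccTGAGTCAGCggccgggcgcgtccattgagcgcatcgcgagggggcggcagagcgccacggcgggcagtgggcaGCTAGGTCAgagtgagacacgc
Txnrd1, the second of 3 annotated starts, chr10:82858956-82859255, plus strand: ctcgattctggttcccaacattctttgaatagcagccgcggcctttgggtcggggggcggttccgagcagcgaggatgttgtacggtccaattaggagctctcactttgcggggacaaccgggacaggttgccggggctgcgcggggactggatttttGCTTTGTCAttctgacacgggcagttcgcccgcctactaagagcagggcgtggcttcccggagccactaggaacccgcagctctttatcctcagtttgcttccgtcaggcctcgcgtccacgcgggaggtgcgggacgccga
The Gclm match lies at positions -134 to -126 and the Txnrd1 match at -92 to -84, counted from the annotated start as 0, and both read on the opposite strand. The Nfe2l2 match lies at -240 to -232. In Srxn1 the TGACNNNGC match lies at 28 to 36 on the opposite strand, and the TGAGTCAGC match at -45 to -37. A match was thus present in Gclm and Nfe2l2, whose negative fold changes did not pass the test, and in Srxn1 and Txnrd1, whose fold changes were near 0.

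Gclc and Gclm encode the catalytic and the modifier subunit of glutamate-cysteine ligase, which makes the first intermediate of glutathione. Gclc (chromosome 9, 77754535 to 77794485, GRCm38, ENSMUSG00000032350) stood at 76.1, 40.8 and 28.7 CPM in DTA-1 libraries 1, 2 and 3, against 113, 92.6 and 95.5 CPM in isotype libraries 1, 2 and 3. The groups did not overlap, and DTA-1 library 1 lay nearer to the isotype libraries than to DTA-1 library 3. Gclc averaged lower with DTA-1 by a log2 fold change of -1.05 ± 0.35 (SE; adjusted p = 0.39 in edgeR and 0.152 in DESeq2). Gclm (chromosome 3, 122245557 to 122270732, ENSMUSG00000028124) stood at 135, 75.4 and 56.7 CPM in the DTA-1 libraries, against 139, 190.0 and 116 CPM in the isotype libraries. DTA-1 library 1 fell within the isotype range and the other 2 below it, and the log2 fold change was -0.74 ± 0.35 (SE; edgeR adjusted p = 0.406). Gclm shares 296 of its 6291 exonic bases with an antisense transcript that had at most 10 reads in a library. The ratio of Gclc to Gclm reads, which no scaling enters, was 0.565, 0.542 and 0.505 with DTA-1 and 0.813, 0.488 and 0.827 with isotype, so the groups overlapped. Gss, the synthetase that completes glutathione, averaged 30.7 ± 10.1 CPM in DTA-1 and 62.7 ± 10.97 CPM in isotype libraries (SD, n = 3 each), with no overlap and an edgeR adjusted p of 0.39.

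Slc7a11 encodes the cystine-importing chain of the xCT transporter, which supplies the cysteine for glutathione. It lies on chromosome 3 (49892526 to 50443614, ENSMUSG00000027737) and was the gene of the set with the most negative fold change. Its level was 136, 31.0 and 39.8 CPM in DTA-1 libraries 1, 2 and 3, against 117, 217 and 186 CPM in isotype libraries 1, 2 and 3. DTA-1 library 1 lay above isotype library 1, so the groups overlapped. Its log2 fold change was -1.33 ± 0.57 (SE), and DTA-1 against isotype gave an adjusted p of 0.396 in edgeR and 0.216 in DESeq2. Slc3a2, the heavy chain that carries Slc7a11 and other amino acid transporters to the membrane, averaged 109 ± 37.7 CPM with DTA-1 and 168 ± 8.70 CPM with isotype (edgeR adjusted p = 0.39). The ratio of Slc7a11 to Slc3a2 reads was 0.893, 0.341 and 0.478 with DTA-1, against 0.668, 1.27 and 1.17 with isotype, and overlapped through the first library of each group.

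Gpx2, a glutathione peroxidase of gut and squamous epithelium (chromosome 12, 76792333 to 76795554, ENSMUSG00000042808), stood at 211, 61.1 and 71.1 CPM in DTA-1 libraries 1, 2 and 3, against 278, 302 and 263 CPM in isotype libraries 1, 2 and 3. Every DTA-1 library was lower, DTA-1 library 1 by a much smaller margin than the other 2. The log2 fold change was -1.30 ± 0.47 (SE), with an adjusted p of 0.39 in edgeR and 0.148 in DESeq2. Isotype library 3, which carried the most glandular stomach transcripts, had the lowest Gpx2 level of its group. The fold changes of other peroxidases differed in sign. Gpx1, the broadly expressed form, averaged 316 ± 38.6 CPM with DTA-1 and 391 ± 77.1 CPM with isotype, the secreted Gpx3 179 ± 51.0 CPM with DTA-1 against 129 ± 17.6 CPM with isotype, and the lipid peroxide reductase Gpx4 77.2 ± 17.9 CPM with DTA-1 against 52.3 ± 9.003 CPM with isotype (SD, n = 3 each). All 3 overlapped between the groups, and their log2 fold changes were -0.31, 0.47 and 0.56, with edgeR adjusted p of 0.533, 0.428 and 0.39. The ratio of Gpx2 to Gpx1 reads was 0.594, 0.22 and 0.227 in DTA-1 libraries 1, 2 and 3, against 0.605, 0.747 and 0.856 in isotype libraries 1, 2 and 3.

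Gsr, glutathione reductase, which regenerates reduced glutathione (chromosome 8, 33652523 to 33698163, ENSMUSG00000031584), did not follow the synthesis genes. It stood at 51.2, 52.2 and 56.9 CPM in DTA-1 libraries 1, 2 and 3, against 134, 48.3 and 42.7 CPM in isotype libraries 1, 2 and 3. A single isotype library was high, and the 3 DTA-1 libraries lay above the other 2 isotype libraries. The log2 fold change of -0.49 ± 0.43 (SE; edgeR adjusted p = 0.599) turned to 0.24 without isotype library 1 (adjusted p = 0.656). Isotype library 1 also had the highest summed level of 6 fibroblast genes, 2966 CPM against 695 to 1651 CPM in the other libraries. Fibroblast genes were not alone in this. The same library had the highest basal squamous sum, 17015 CPM against 3337 to 11193 CPM in the others. Its mean log2 CPM of neutrophil genes (6.13) and of macrophage genes (5.61) was the highest as well. The part of any of these cells in the Gsr level was not tested.

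Both thioredoxin genes of the set had fold changes near 0. Txnrd1, the cytosolic reductase that keeps thioredoxin reduced (chromosome 10, 82833951 to 82897712, ENSMUSG00000020250), stood at 77.1, 133 and 133 CPM in DTA-1 libraries 1, 2 and 3, against 128, 91.5 and 94.0 CPM in isotype libraries 1, 2 and 3. DTA-1 libraries 2 and 3, the lowest for Gclc, Gclm, Slc7a11 and Gpx2, were the highest for Txnrd1, and DTA-1 library 1 was the lowest. The log2 fold change was 0.13 ± 0.26 (SE; edgeR adjusted p = 0.828), and it was -0.04 when libraries were scaled by their totals alone. Srxn1, sulfiredoxin, which repairs overoxidized peroxiredoxins (chromosome 2, 152105516 to 152111376, ENSMUSG00000032802), stood at 78.7, 68.6 and 99.1 CPM with DTA-1, against 98.0, 83.2 and 68.1 CPM with isotype. The ranges nearly coincided, and the log2 fold change of -0.02 ± 0.20 (SE; edgeR adjusted p = 0.976) took either sign between alternatives.

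Read ratios within a library need no scaling between libraries. The pairs were chosen after the levels had been seen, so the ratios restate those levels and are no further evidence. The ratio of Gclc to Txnrd1 reads was 0.986, 0.308 and 0.215 in DTA-1 libraries 1, 2 and 3, against 0.882, 1.01 and 1.02 in isotype libraries 1, 2 and 3. The ratio of Gpx2 to Txnrd1 reads was 2.73, 0.46 and 0.533 with DTA-1, against 2.17, 3.30 and 2.80 with isotype. In both ratios DTA-1 library 1 sat with the isotype libraries, and DTA-1 libraries 2 and 3 lay several times lower. The ratio of Srxn1 to Gclc reads was 1.04, 1.68 and 3.46 with DTA-1, against 0.868, 0.899 and 0.713 with isotype, and did not overlap. The ratio of Gsr to Gclc reads, 0.673, 1.28 and 1.99 with DTA-1 against 1.19, 0.522 and 0.448 with isotype, did overlap. Of the partners of these enzymes, Txn1, the cytosolic thioredoxin, averaged 325 ± 156 CPM with DTA-1 and 508 ± 171 CPM with isotype (edgeR adjusted p = 0.489). The mitochondrial reductase Txnrd2 averaged 21.2 ± 4.37 CPM with DTA-1 against 14.9 ± 1.76 CPM with isotype, and Txnrd3, a reductase abundant in testis, 17.2 ± 5.48 CPM with DTA-1 against 15.6 ± 2.02 CPM with isotype, with edgeR adjusted p of 0.392 and 0.824. Txnip, which binds and inhibits thioredoxin, ranged from 314 to 902 CPM with DTA-1 and from 297 to 1017 CPM with isotype. The peroxiredoxin Prdx1 averaged 196 ± 35.0 CPM with DTA-1 against 252 ± 41.8 CPM with isotype, Prdx6 162 ± 12.7 CPM with DTA-1 against 205 ± 42.6 CPM with isotype, and the mitochondrial Prdx3 142 ± 22.2 CPM with DTA-1 against 97.6 ± 9.90 CPM with isotype (SD, n = 3 each; edgeR adjusted p of 0.461, 0.449 and 0.39).

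Nqo1, the quinone reductase that serves as the standard NRF2 reporter gene (chromosome 8, 107388225 to 107403206, ENSMUSG00000003849), stood at 108, 57.1 and 58.0 CPM in DTA-1 libraries 1, 2 and 3, against 81.7, 111 and 157 CPM in isotype libraries 1, 2 and 3. DTA-1 library 1 lay within the isotype range and the other 2 below it. Nqo1 thus had a log2 fold change of -0.65 ± 0.34 (SE; edgeR adjusted p = 0.427). Its relative Nqo2, which uses another cosubstrate, averaged higher, with 51.2, 84.9 and 67.5 CPM in the DTA-1 libraries against 32.9, 29.6 and 43.2 CPM in the isotype libraries. The groups did not overlap for Nqo2, and its log2 fold change was 0.94 ± 0.24 (SE), with an adjusted p of 0.39 in edgeR and 0.0685 in DESeq2.

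Hmox1, heme oxygenase 1, which NRF2 induces and BACH1 represses (chromosome 8, 75093621 to 75100589, ENSMUSG00000005413), stood at 83.7, 21.8 and 34.5 CPM in DTA-1 libraries 1, 2 and 3, against 73.6, 102 and 67.5 CPM in isotype libraries 1, 2 and 3. Hmox1 in DTA-1 library 1 lay within the isotype range, and the other 2 lay below it. For Hmox1 the log2 fold change was -0.80 ± 0.48 (SE; edgeR adjusted p = 0.467). Macrophages that clear red cells are a well-known source of Hmox1. Of 12 macrophage genes 7 of the 10 tested had negative fold changes, and their summed level was 252, 1417 and 634 CPM in DTA-1 libraries 1, 2 and 3, against 1123, 512 and 224 CPM in isotype libraries 1, 2 and 3. Lyz2 alone made 1173 CPM of the sum in DTA-1 library 2, and the mean log2 CPM of the macrophage genes, which weighs them equally, was 3.97, 4.92 and 5.20 with DTA-1, against 5.61, 5.11 and 3.81 with isotype. DTA-1 library 2, with the lowest Hmox1 level of the 6 libraries, thus had the highest macrophage sum only through Lyz2, and it had the highest red cell sum. Spic, the factor of red-pulp macrophages, was at 0 in at least 1 library. The part of macrophages in the Hmox1 level was not tested. Blvrb, a biliverdin and flavin reductase downstream of heme breakdown, stood at 31.2, 16.9 and 22.0 CPM with DTA-1, against 49.4, 51.2 and 51.9 CPM with isotype. Its groups were well apart (log2 fold change -1.12 ± 0.23, SE), and it was lower by DESeq2 (adjusted p = 0.0228) but not by edgeR (adjusted p = 0.39). Omitting DTA-1 library 2, DTA-1 library 3 or isotype library 2 ended the DESeq2 call. The constitutive Hmox2 averaged 33.8 ± 2.73 CPM with DTA-1 against 29.3 ± 0.305 CPM with isotype (edgeR adjusted p = 0.516).

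Nfe2l2 itself (chromosome 2, 75675513 to 75704641, ENSMUSG00000015839) stood at 258, 182 and 152 CPM in DTA-1 libraries 1, 2 and 3, against 206, 250.4 and 345 CPM in isotype libraries 1, 2 and 3. The order of the libraries resembled that of Nqo1, with DTA-1 library 1 inside the isotype range. The log2 fold change was -0.44 ± 0.28 (SE; edgeR adjusted p = 0.493). Since NRF2 is controlled mainly by protein turnover, its transcript level is no measure of its activity. Keap1, its inhibitor, stood at 87.3, 99.97 and 87.5 CPM with DTA-1, against 74.9, 66.4 and 79.9 CPM with isotype, without overlap (log2 fold change 0.31 ± 0.15, SE; edgeR adjusted p = 0.405). Bach1, the repressor that competes for the same elements, averaged 47.3 ± 8.81 CPM with DTA-1 against 39.7 ± 3.24 CPM with isotype, the small MAF partner Mafg 100.4 ± 18.7 CPM with DTA-1 against 87.7 ± 23.7 CPM with isotype, and Sqstm1, which encodes the KEAP1-binding autophagy receptor p62, 612 ± 103 CPM with DTA-1 against 451 ± 95.4 CPM with isotype. Their edgeR adjusted p were 0.524, 0.714 and 0.44. Of the 14 listed regulators and partners 4 had negative fold changes. The lowest was that of Nfe2l3, a related factor, which stood at 10.3, 5.79 and 5.09 CPM with DTA-1 against 20.9, 18.1 and 14.7 CPM with isotype. Its log2 fold change was -1.35 ± 0.32 (SE), and it was lower by DESeq2 (adjusted p = 0.0254) but not by edgeR (adjusted p = 0.39), and the DESeq2 call ended without DTA-1 library 2, DTA-1 library 3 or isotype library 2.

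**Figure D2:**
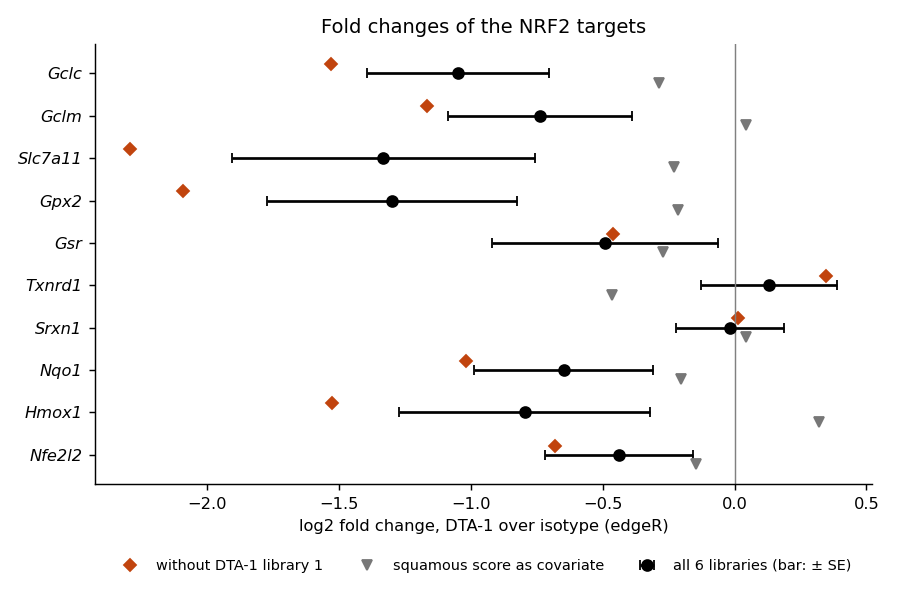
Log2 fold change of each gene, DTA-1 over isotype, in edgeR (black, all 6 libraries, bars ± SE), without DTA-1 library 1 (red diamonds) and with the squamous score as covariate (gray triangles). Without that library Slc7a11 lay at -2.29 and Gpx2 at -2.09, and with the covariate all 10 values lay between -0.46 and 0.32.

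DTA-1 library 1 decided whether any of the 10 genes passed. Without it, edgeR called Gclc (log2 fold change -1.53, adjusted p = 0.0354), Slc7a11 (-2.29, adjusted p = 0.0354) and Gpx2 (-2.09, adjusted p = 0.0288) as lower, and the median over the 10 genes was -1.09. The same fit called 3.50% of all genes lower and 0.374% higher, on 2 DTA-1 libraries. Hmox1 (-1.53) and Gclm (-1.16) had adjusted p of 0.0526 and 0.0751 there. Without DTA-1 library 1 DESeq2 called 6 of the 10 genes lower, namely Gclc, Gclm, Slc7a11, Gpx2, Nqo1 and Hmox1, beside 10.5% of all genes. Without any of the other 5 libraries in turn neither edgeR nor DESeq2 called one of the 10 genes. The median over the 10 genes then lay between -0.81 and -0.48 in edgeR.

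Gclc, Gclm, Slc7a11 and Gpx2, but not Gsr, were low in the same DTA-1 libraries in which squamous transcripts were low. Each of the 26 squamous markers was negative in fold change, and their median was -0.996, and 10 had every DTA-1 library below every isotype library. Per 1000 reads of the 26 squamous genes, Gpx2 had 5.33, 5.67 and 5.35 reads in DTA-1 libraries 1, 2 and 3, against 6.10, 5.93 and 5.35 reads in isotype libraries 1, 2 and 3. On that scale the libraries lay close together, where the CPM of Gpx2 spanned several fold. This closeness is for the sum of both squamous lists. The basal sum alone was 17015, 9379 and 4706 CPM in isotype libraries 1, 2 and 3. Gpx2 stood at 278, 302 and 263 CPM in them, so it did not follow the basal sum there. Slc7a11 had 3.43, 2.89 and 2.997 reads per 1000 squamous reads with DTA-1, against 2.57, 4.26 and 3.78 with isotype, and Gclc 1.92, 3.80 and 2.16 with DTA-1 against 2.48, 1.82 and 1.94 with isotype. Both overlapped between the groups. Hmox1 had 2.12, 2.02 and 2.60 reads per 1000 squamous reads with DTA-1, against 1.61, 2.01 and 1.37 with isotype, the DTA-1 libraries being slightly higher. Txnrd1 had 1.95, 12.3 and 10.0 reads per 1000 squamous reads with DTA-1, against 2.81, 1.80 and 1.91 with isotype, and Srxn1 1.99, 6.38 and 7.45 with DTA-1 against 2.15, 1.64 and 1.38 with isotype. These 2 genes were thus more than 2 times higher per squamous read in DTA-1 libraries 2 and 3 than in any isotype library. The squamous sum itself was 10760.4 and 13292 CPM in those libraries, against 45577 to 50900.1 CPM with isotype. A gene with the same CPM in all libraries therefore rises on this scale, and such a rise is no evidence of a change in the gene. Nfe2l2 had 6.53, 16.9 and 11.4 such reads in the DTA-1 libraries, against 4.53, 4.92 and 7.003 in the isotype libraries. Gsr had 1.29, 4.85 and 4.28 with DTA-1, against 2.94, 0.949 and 0.869 with isotype. Nqo1 had 2.73, 5.30 and 4.36 with DTA-1, against 1.79, 2.18 and 3.19 with isotype, and Gclm 3.40, 7.01 and 4.27 with DTA-1, against 3.05, 3.73 and 2.35 with isotype. DTA-1 libraries 2 and 3 thus lay above all isotype libraries for these 4 genes too, by smaller margins than for Txnrd1 and Srxn1, and glutathione genes stood on both sides. In CPM the same libraries lay below all isotype libraries for Nfe2l2, Nqo1 and Gclm. With the squamous score as a covariate in edgeR, the fold change was -0.29 for Gclc, -0.23 for Slc7a11, -0.21 for Gpx2, -0.20 for Nqo1, 0.04 for Gclm and 0.32 for Hmox1, each with an adjusted p of 0.9997. The score comes from the same libraries and differs between the groups, so with 6 libraries antibody and epithelial content cannot be told apart.

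**Figure D3:**
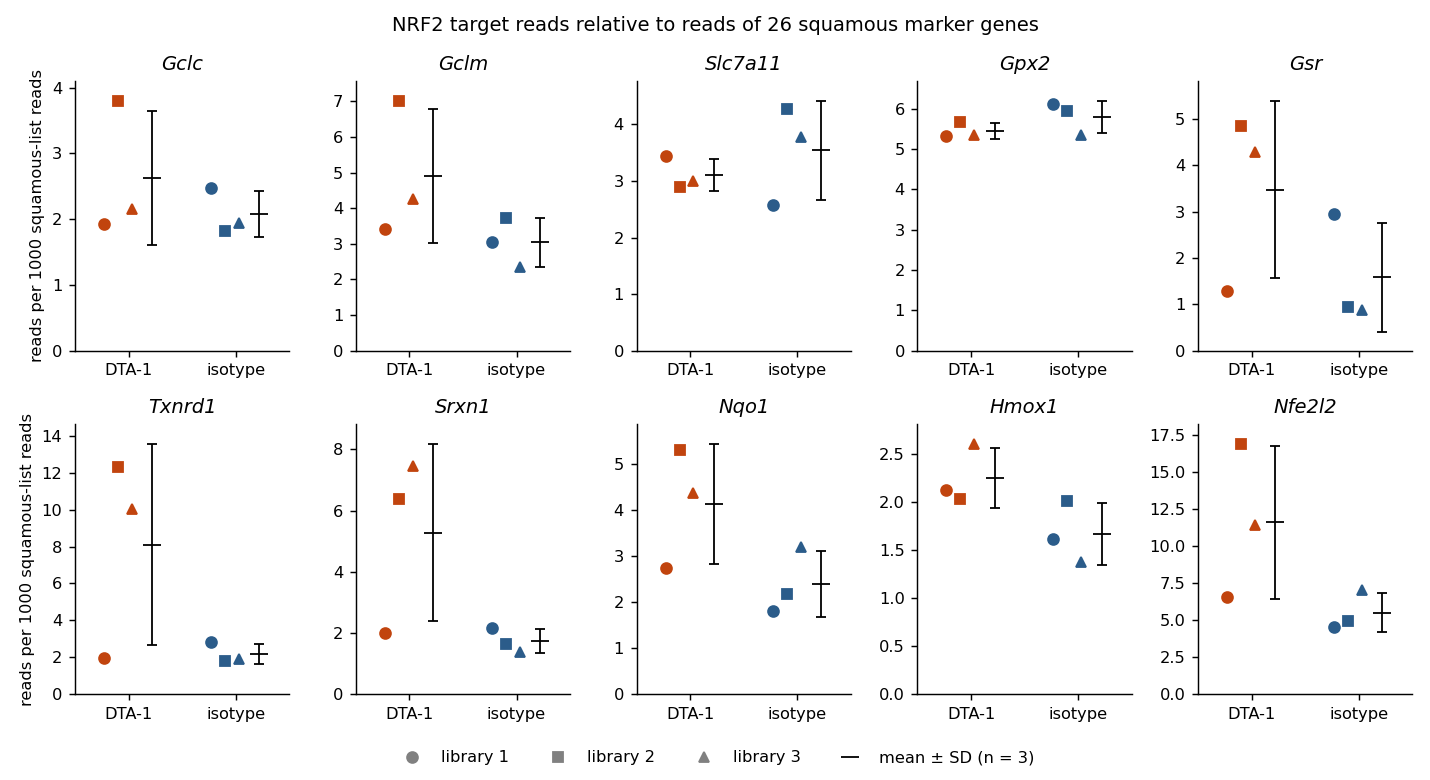
Reads of each gene per 1000 reads of 26 squamous marker genes (vertical axes from 0) in DTA-1 (left, red) and isotype (right, blue) libraries; symbols mark libraries 1 to 3 and black bars the mean ± SD (n = 3 each). Gpx2 stayed between 5.33 and 6.10, whereas Txnrd1 ran from 1.80 to 12.3 and was high in DTA-1 libraries 2 and 3, whose squamous sums were low.

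The wider pathway was read from 6 lists with 93 genes. EdgeR called 0 of the 92 tested, and DESeq2 called Blvrb and Nfe2l3 on all 6 libraries and 0 of them without DTA-1 library 2, DTA-1 library 3 or isotype library 2. Of 26 further NRF2 targets, 22 were negative in fold change (median -0.47), and 11 had every DTA-1 library below every isotype library, against 1 above (9.38% and 8.6% of all genes). At an unadjusted p under 0.05 edgeR counted 11 as lower and 1, Nqo2, as higher (7.52% and 5.21% of all genes). The smallest p on the lower side was that of Idh1, the cytosolic NADP-dependent isocitrate dehydrogenase, which averaged 77.0 ± 5.66 CPM with DTA-1 and 125 ± 20.6 CPM with isotype (SD, n = 3 each; log2 fold change -0.70 ± 0.17, SE; edgeR adjusted p = 0.39). The other 20 tested glutathione genes were split, 9 negative and 11 positive with a median of 0.15, and Glrx3, a cytosolic glutaredoxin, had the smallest p on the higher side (68.8 ± 1.603 CPM with DTA-1 against 51.2 ± 8.39 CPM with isotype, edgeR adjusted p = 0.39). The 18 thioredoxin and peroxiredoxin genes were split likewise, 8 negative and 10 positive with a median of 0.02. Sesn2, a stress-induced sestrin, had the smallest p among the lower ones (11.3 ± 3.28 CPM with DTA-1 against 21.1 ± 2.08 CPM with isotype, edgeR adjusted p = 0.39). Of 14 regulators and partners of NRF2, 10 had positive fold changes (median 0.24), and Rbx1, of the ubiquitin ligase that acts with KEAP1, averaged 62.5 ± 4.74 CPM with DTA-1 against 49.9 ± 4.77 CPM with isotype (edgeR adjusted p = 0.397). Of 10 heme and iron genes 7 were positive (median 0.10), Cp, the plasma ferroxidase ceruloplasmin, having 46.3 ± 13.6 CPM with DTA-1 against 34.4 ± 2.53 CPM with isotype (edgeR adjusted p = 0.43). Superoxide dismutases and catalase, 4 genes, had a median of 0.22, Sod2 standing at 197 ± 25.6 CPM with DTA-1 against 153 ± 9.93 CPM with isotype and Cat at 189 ± 16.1 CPM with DTA-1 against 226 ± 72.6 CPM with isotype (edgeR adjusted p of 0.402 and 0.632).

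**Figure D4:**
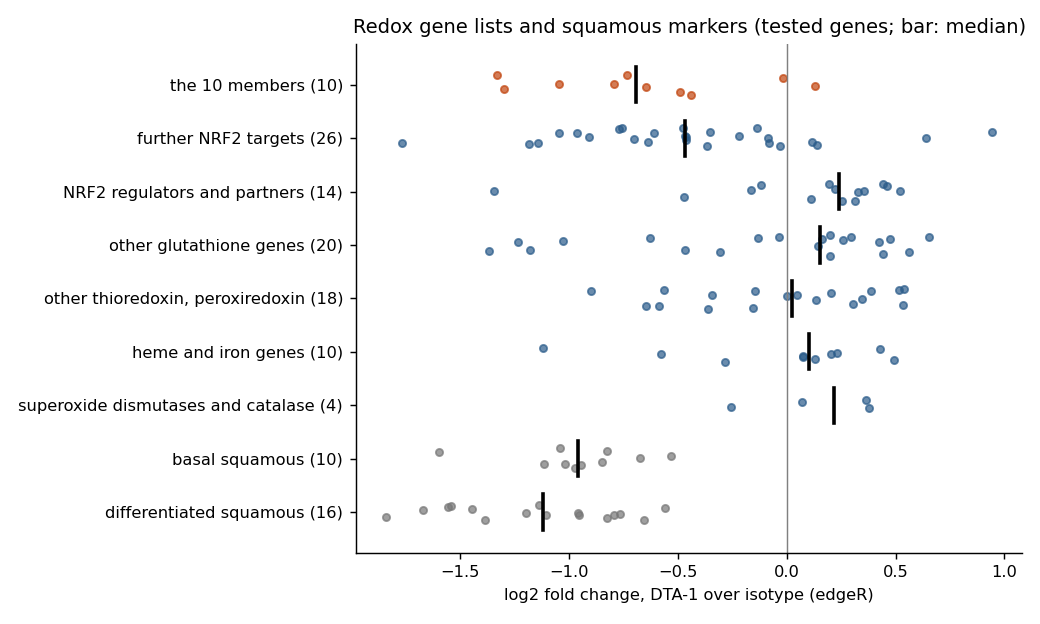
Log2 fold changes, DTA-1 over isotype in edgeR, of the tested genes of each redox list and of the squamous marker lists (gray), 1 point per gene with vertical jitter and a black bar at the median. The 10 NRF2 targets (red, median -0.69) and the 26 further targets (median -0.47) lay to the left, the other redox lists around 0, and the basal and differentiated squamous lists at -0.96 and -1.12.

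The genes whose profiles over the 6 libraries were most like those of 3 representatives were found by the root mean square difference of centred log2 CPM. For Gclc these were the epithelial serine protease gene Tmprss11d (0.0470), Sema4b (0.0674) and Nbeal2 (0.0753), all closer than any of the other 9 genes of the set, of which Gclm was the nearest (0.312). For Nqo1 they were Garem1 (0.0640), Pde12 (0.0792) and Etv3 (0.0871), and the nearest gene of the set was Nfe2l2 (0.176). For Hmox1 they were Robo1 (0.0945), Mpzl3 (0.133) and Sdr9c7 (0.144), and the nearest gene of the set was Gpx2 (0.321). In each case the nearest genes were picked from all tested genes with a named symbol outside the set. That they lay closer than the few genes of the set was therefore nearly fixed in advance. Txnrd1 was the farthest of the set from Gclc (0.918) and from Hmox1 (1.03), whereas Gsr (0.865) was farther from Nqo1 than Txnrd1 (0.795).

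Per kilobase of annotated exon, Gpx2 stood at 35.5 ± 26 CPM per kilobase in DTA-1 libraries and at 87.3 ± 6.05 in isotype libraries, where it was the most abundant of the set (SD, n = 3 each). Nqo1 followed with 47.9 ± 18.8 CPM per kilobase in DTA-1 and 75.1 ± 24.5 in isotype libraries. Nfe2l2 had 51.9 ± 14.4 in DTA-1 and 70.4 ± 18.6 in isotype libraries. On this measure these 3 levels did not differ beyond their spread in isotype libraries. The annotated exons of Gpx2, 3222 bases, fill its whole span, so any intron counts as exon and lowers its value. How Gpx2 compares with Nqo1 and Nfe2l2 is therefore uncertain. Hmox1 stood at 26.7 ± 18.7 CPM per kilobase with DTA-1 and 46.3 ± 10.5 with isotype. Srxn1 (29.1 ± 5.50 with DTA-1, 29.5 ± 5.31 with isotype), Gsr (19.4 ± 1.11 with DTA-1, 27.3 ± 18.6 with isotype), Gclc (12.9 ± 6.53 with DTA-1, 26.6 ± 2.91 with isotype) and Gclm (14.1 ± 6.46 with DTA-1, 23.5 ± 6.05 with isotype) were within their spread of each other in isotype libraries. Txnrd1 (16.1 ± 4.55 with DTA-1, 14.8 ± 2.87 with isotype) and Slc7a11 (4.95 ± 4.17 with DTA-1, 12.5 ± 3.67 with isotype) were the lowest there, and the long annotated exons of Slc7a11, 13922 bases in all, lower its value.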

How the data were processed

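PolyA RNA was sequenced from 6 esophagus libraries, 3 per antibody. The authors deposited whole-number read counts per Ensembl gene, not normalized. The submitters' processing notes name the build mm10 and the tools STAR, cutadapt 1.13, DESeq2 1.14.1 and HTSeq 0.6.1p1. How each was set, strand included, is not given in these sources, so reads of overlapping, antisense or near-identical genes (Gpx2, Gpx4, Prdx6 and Rbx1 have annotated pseudogenes, with at most 36 reads) are uncertain. The labels do not call the libraries separate mice, so the p-values cover only sample-to-sample spread, possibly technical. No 2 libraries agreed within sampling noise, by the median over genes of a chi-square between their counts. The closest pair was DTA-1 library 1 with isotype library 3 (4.54). Within a group the closest were DTA-1 libraries 2 and 3 (6.69).

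A low-count filter (filterByExpr) left 15763 genes, all 10 members included. It asked for at least 15 reads in total. It also asked, in 3 libraries or more, for the CPM that 10 reads make in a library of median size. TMM-scaled libraries entered edgeR 4.0.16 (R 4.3.3), whose robust quasi-likelihood fit had antibody alone as its term, and p-values were adjusted by Benjamini-Hochberg over all tested genes. The SE is the fold change over the root of the F statistic. Alternatives included limma-voom (limma 3.58.1) and DESeq2 1.42.0. Fold changes are DTA-1 over isotype. Scores are means of log2 CPM (prior count 2). Positions and exon lengths come from GENCODE M21. In simulated counts for this comparison (15763 genes), edgeR recovered 7% of genes changed 2-fold and 57% of those changed 4-fold, with 4 of its 68 calls false. DESeq2 recovered 26% and 77%, but 50 of its 153 calls were false and it called 6 genes where none was changed. These counts were drawn once, independently for each gene, from dispersions that edgeR had estimated. They hold no shift in tissue makeup shared by many genes, so they cannot rank the tools on the real libraries. Calls by DESeq2 alone are still to be read with caution.

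The members, the lists and the rule for named genes were chosen with earlier results of these data known. Named were the 10 members, 17 partners and paralogs, the smallest p per pathway list and direction, and the 3 nearest profiles of Gclc, Nqo1 and Hmox1.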

Additional observations from a re-analysis of the deposited data

How the results depend on the processing

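Over 15 alternatives (3 scalings, 2 filters, DESeq2, limma-voom, the replicate number as a block, a squamous covariate and each library omitted), Nqo1 and Nfe2l2 kept their direction and stayed short of the threshold. Library totals as the only scaling put the median of all genes at -0.19 and Txnrd1 at -0.0388. Srxn1 was at 0.0119 with RLE size factors and 0.0096 in DESeq2. With the squamous covariate the median of the 10 genes was -0.21, Gclm 0.0434, Hmox1 0.32, Txnrd1 -0.46 and Srxn1 0.0449. Genes called over the whole table numbered 0 in edgeR, with 2006 at an unadjusted p under 0.05, 180 in DESeq2 and 0 in limma-voom, and DESeq2 called 2 pathway genes. Omitting single libraries, edgeR called 0 to 611 genes, 0 to 3 of the 10 and 0 to 9 pathway genes, the highest without DTA-1 library 1, and the median of the 10 ran from -1.09 to -0.48, Gsr from -0.75 to 0.2432 and Srxn1 from -0.1733 to 0.1325. DESeq2 with single libraries omitted, added after the data were seen, called 41 genes without DTA-1 library 2, 41 without DTA-1 library 3, 56 without isotype library 2, 896 without isotype library 3 and 2449 without DTA-1 library 1. It called 0 to 6 of the 10 and 0 to 32 pathway genes (8 without isotype library 3), the median was -1.0572 without DTA-1 library 1, Gsr reached 0.25, and Srxn1 was 0.0477, 0.1113 and 0.0084 without DTA-1 library 1, DTA-1 library 2 and isotype library 2, and 0.14 at its highest. The cause was not tested. Same-numbered libraries did not deviate together (correlations 0.0167, -0.333 and -0.0864). These values gave no sign of pairing by number, but deviations from means of 3 libraries cannot exclude it. With the replicate block edgeR called 0 genes and the median of the 10 was -0.74. At 3 libraries per group the simulated 2-fold changes were mostly missed.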
